A study of Homo sapiens with 6 samples.

Results

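Sirtuins are enzymes that remove acyl groups from lysines of proteins and use up NAD in doing so. The family has 7 members in humans, SIRT1 to SIRT7, and all 7 were taken by gene symbol from the 62753 genes of the expression table, where each symbol had 1 row. Of the 7, 6 had a mean of at least 0.5 FPKM (fragments divided by gene length and by library size) over the libraries and were tested among 13167 genes, and SIRT2 was not. Messenger RNA had been sequenced from 6 libraries of cells labelled as HepG2, a line from a human hepatocellular carcinoma. The 3 WT libraries came from unedited cells and the 3 sgPARP1 libraries from cells whose PARP1 gene had been knocked out with CRISPR-Cas9, and no other allele or treatment is named for either group. The labels state neither whether the edited cells were 1 clone or a pool nor whether the libraries of a group came from separate cultures. The p-values therefore cover only library-to-library spread, possibly a technical one.

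Each sirtuin splits NAD, releases nicotinamide and moves the acyl group from the lysine onto ADP-ribose. PARP1, which binds broken DNA and builds chains of ADP-ribose on proteins, draws on the same NAD. SIRT1, SIRT6 and SIRT7 lie mainly in the nucleus, SIRT2 mainly in the cytosol and SIRT3, SIRT4 and SIRT5 in mitochondria, and in liver several of them act on enzymes of glucose, fat and amino acid metabolism. The comparison addresses how the messenger RNA of these enzymes differed once PARP1 was knocked out.

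A stretch of the catalytic core was read from the GENCODE release 29 transcript of each of the 7 genes (GRCh38). Capitals mark the codons of the shared Gln-Asn-X-Asp motif of the NAD pocket at the 5′ end and of the catalytic histidine with the glycine after it at the 3′ end.
SIRT1: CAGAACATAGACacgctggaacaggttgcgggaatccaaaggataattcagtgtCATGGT
SIRT2: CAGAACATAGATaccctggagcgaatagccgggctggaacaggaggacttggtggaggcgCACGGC
SIRT3: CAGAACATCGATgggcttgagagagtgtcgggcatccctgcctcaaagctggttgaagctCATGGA
SIRT4: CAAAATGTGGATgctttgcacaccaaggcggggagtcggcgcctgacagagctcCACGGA
SIRT5: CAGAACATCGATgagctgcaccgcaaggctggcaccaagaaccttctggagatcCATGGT
SIRT6: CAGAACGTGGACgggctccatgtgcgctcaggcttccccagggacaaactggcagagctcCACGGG
SIRT7: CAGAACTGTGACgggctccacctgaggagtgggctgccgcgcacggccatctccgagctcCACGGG
The stretches were found by searching for the 2 capital blocks, so the presence of both in all 7 genes is no result. From first to last capital there were 60 bases in SIRT1, SIRT4 and SIRT5 and 66 bases in the others. The stretch of SIRT1 lies on the plus strand at chr10:67906880-67908047 across exons 5 and 6, and its histidine is codon 363 of 747. For SIRT7 the stretch lies within exon 6 on the minus strand at chr17:81914619-81914684, with the histidine at codon 187 of 400. That of SIRT3 runs over exons 3 and 4 on the minus strand at chr11:230512-233007, with the histidine at codon 248 of 399. The remaining stretches lie at chr19:38883694-38889089 for SIRT2 (minus strand), chr12:120303988-120304047 for SIRT4 (plus), chr6:13591837-13595478 for SIRT5 (plus) and chr19:4177114-4179144 for SIRT6 (minus). Among pairs of equal length, SIRT6 and SIRT7 matched at 40 of 66 bases (60.6%) and SIRT4 and SIRT5 at 36 of 60 (60.0%). The lowest match was that of SIRT3 and SIRT7 at 43.9%. These counts include the capital blocks, which the search required.

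The libraries held 14842498 to 17305129 reads assigned to genes, as worked out from the FPKM values, with 4.18% to 4.49% of them on mitochondrial genes. PARP1 stood at 31.8, 31.5 and 31.5 FPKM in WT and at 4.31, 4.23 and 4.39 FPKM in sgPARP1, 86.4% lower, so every library matched its label. The cell type label was not matched in the same way. Of 20 hepatocyte markers, 19 lay below 0.5 FPKM and 10 were listed at 0 in all 6 libraries, among them ALB, AFP, TTR, APOB and SERPINA1, which HepG2 cells are known to make. The 20 markers summed to 3.94 to 4.57 FPKM in WT and 4.25 to 4.89 FPKM in sgPARP1, nearly all of it FOXA1. Epithelial markers summed to 504 to 561 FPKM in WT and 424 to 466 in sgPARP1, and 1 of 4 tested was lower, KRT8 (0 of 4 without WT 1, WT 2, sgPARP1 1 or sgPARP1 2). Fibroblast markers summed to 27.0 to 29.6 FPKM in WT and 19.2 to 21.6 in sgPARP1, and 2 of 4 tested were lower, LUM (9.15 ± 0.49 and 1.04 ± 0.26 FPKM, most of the difference in the sum) and DCN. PDGFRB stood at 2.67 ± 0.41 and 3.43 ± 0.15 FPKM with the groups apart, without passing, and COL1A1 at 15.1 ± 0.60 and 15.9 ± 1.2. Voom called 1 fibroblast marker higher and 2 lower. Over all 13167 tested genes, the main test described below called 4.44% lower and 3.52% higher, and voom 6.95% lower and 4.91% higher. No leukocyte or endothelial marker on the lists had a mean of 0.5 FPKM. The part of these marker differences in the results below was not tested.

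SIRT6 was the most abundant sirtuin, with a mean of 11.9 FPKM over the 6 libraries, above 71.6% of the tested genes. SIRT1 followed at 7.49 FPKM, SIRT7 at 5.09, SIRT3 at 4.92, SIRT5 at 1.35 and SIRT4 at 0.551 FPKM, and SIRT2 was listed at or near 0. Neighbours in this order did not overlap over the 6 libraries, except that SIRT7 and SIRT3 overlapped, with SIRT7 above in 5 of 6 libraries. FPKM divides by the gene length in the deposited table, which is 2749 bases for SIRT6 and 11295 bases for SIRT5, and the order rests on those lengths. In reads, SIRT6 (426 to 656 per library) and SIRT1 (508 to 600) overlapped. The summed level of the 7 genes was 32.2 ± 1.6 FPKM in WT and 30.4 ± 1.3 FPKM in sgPARP1 (mean ± SD, n = 3 each), with overlapping ranges. Within that sum, SIRT1 made up 22.3 ± 2.0% in WT and 25.8 ± 2.6% in sgPARP1, SIRT7 17.3 ± 0.76% and 15.2 ± 0.14%, and SIRT6 38.0 ± 2.9% and 37.9 ± 2.7%. The share of SIRT3 went down about as much as that of SIRT7, from 16.7 ± 0.51% to 14.6 ± 0.19%.

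**Figure D1:**
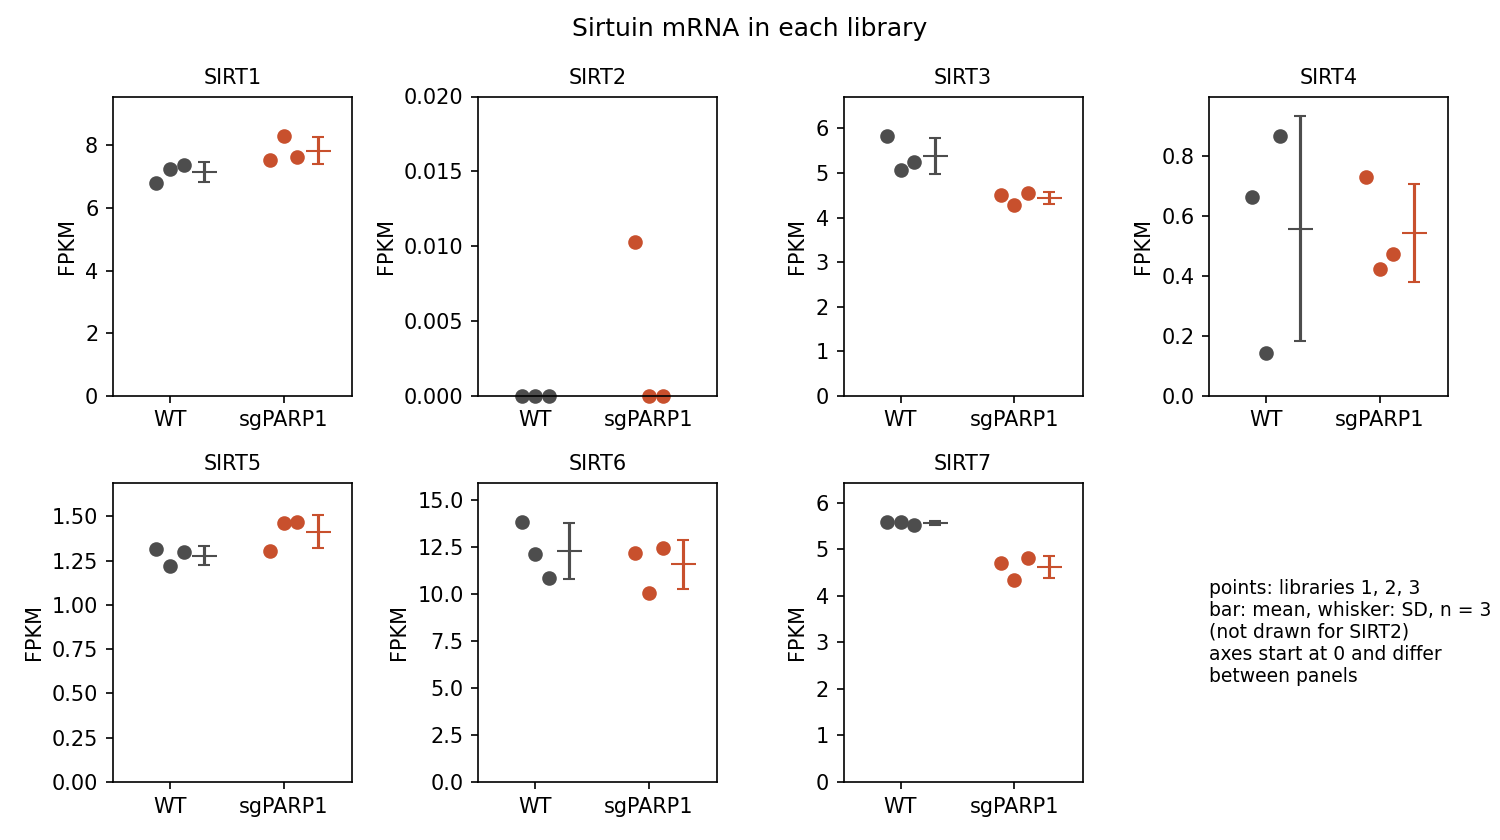
Level of each sirtuin in FPKM in the 3 WT and 3 sgPARP1 libraries, with points for libraries and, except for SIRT2, a bar and whisker for the mean and SD. The groups lay apart for SIRT1, SIRT3 and SIRT7 and overlapped for SIRT4, SIRT5 and SIRT6.

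SIRT7 was the 1 sirtuin that passed the test, and it was lower in sgPARP1. It fell by 16.97% on average, SIRT3 stood 17.5% lower without passing, and SIRT1 stood 9.5% higher without passing. SIRT4, SIRT5 and SIRT6 had overlapping groups. Log2 fold changes are sgPARP1 over WT on the log2(FPKM + 1) scale, which understates changes of low genes, and the test was limma's moderated test with Benjamini-Hochberg adjustment over all tested genes and a threshold of 0.05. Among all 13167 genes it called 7.96% changed, 4.44% lower and 3.52% higher, against 1 of 6 sirtuins, lower. Before adjustment 24.4% of genes had a p under 0.05 (12.3% lower, 12.1% higher), against 2 sirtuins, both lower. Groups did not overlap for 31.1% of tested genes, lower for 14.9% and higher for 16.1%, against 2 sirtuins lower (SIRT7 and SIRT3) and 1 higher (SIRT1). The median log2 fold change was −0.03 over the 6 sirtuins and 0.00 over all tested genes. In bulk RNA, fewer cells that express a gene and less RNA per cell cannot be told apart.

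Among the nuclear sirtuins, SIRT7 (ENSG00000187531, chr17:81911939-81921323, minus strand) is enriched in the nucleolus, where it binds RNA polymerase I, and removes acetyl groups from histone H3. It stood at 5.59, 5.58 and 5.51 FPKM in WT and 4.70, 4.35 and 4.81 FPKM in sgPARP1. All sgPARP1 libraries lay below all WT libraries, and the WT libraries differed little among themselves. The means were 5.56 ± 0.044 and 4.62 ± 0.24 FPKM (SD, n = 3 each), a log2 fold change of −0.22 with a standard error of 0.051 and a 95% interval from −0.35 to −0.10 (limma, adjusted p = 0.0447). The change was small beside others: 92.4% of the called genes had a smaller p than SIRT7, and their median absolute log2 fold change was 0.35. The call was lost without any 1 of the libraries: the adjusted p was 0.115, 0.139 and 0.114 without WT 1, 2 and 3 and 0.121, 0.0976 and 0.0702 without sgPARP1 1, 2 and 3. It was also lost when low genes were kept in the test (adjusted p = 0.0839) and with the replicate number as a block (0.108), while the log2 fold change stayed between −0.25 and −0.19 with 1 library left out.

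SIRT1 (ENSG00000096717, chr10:67884656-67918390, plus strand) deacetylates histones and many transcription factors. Its levels were 6.80, 7.26 and 7.39 FPKM in WT and 7.54, 8.32 and 7.63 FPKM in sgPARP1. The groups lay apart, with the highest WT library just under the lowest sgPARP1 library. A log2 fold change of 0.12 was obtained (standard error 0.055, interval −0.02 to 0.25; limma, adjusted p = 0.259), and it did not pass under any alternative tried.

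SIRT6 (ENSG00000077463, chr19:4174109-4182566, minus strand) is a chromatin enzyme known from mouse work to hold down genes of glucose uptake and glycolysis. It stood at 13.8, 12.1 and 10.8 FPKM in WT and 12.2, 10.1 and 12.4 FPKM in sgPARP1. Each group had its own high and low libraries, and the ranges overlapped. The log2 fold change of −0.08 had an interval from −0.33 to 0.17 (standard error 0.106; limma, adjusted p = 0.710), and it turned to 0.01 without WT 1 or without sgPARP1 2.

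In mitochondria, SIRT3 (ENSG00000142082, chr11:215030-236931, minus strand) is the main deacetylase. Its 5.84, 5.07 and 5.25 FPKM in WT stood above the 4.50, 4.29 and 4.55 FPKM in sgPARP1. The groups lay apart, and the means of 5.39 ± 0.40 and 4.44 ± 0.14 FPKM differed about as much as those of SIRT7, with a larger SD in WT. This gave a log2 fold change of −0.23 (standard error 0.061, interval −0.37 to −0.09; limma, adjusted p = 0.0707). With voom on the recovered reads, which called 11.9% of all tested genes (6.95% lower, 4.91% higher), the value was −0.28 and passed (adjusted p = 0.0374). Over 8 settings other than leaving out a library, the adjusted p of SIRT3 ran from 0.0374 to 0.146, and 1 passed.

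SIRT5 (ENSG00000124523, chr6:13574227-13615158, plus strand) removes succinyl, malonyl and glutaryl groups. It stood at 1.32, 1.22 and 1.30 FPKM in WT and 1.31, 1.47 and 1.47 FPKM in sgPARP1, where 2 libraries lay above WT and 1 within it. The difference was 0.08 on the log2 scale (standard error 0.072, interval −0.09 to 0.25; limma, adjusted p = 0.540). SIRT4 (ENSG00000089163, chr12:120302316-120313249, plus strand) has weak deacetylase activity and acts on glutamate dehydrogenase and leucine breakdown enzymes. It had 14, 3 and 16 reads in WT and 14, 8 and 10 in sgPARP1, or 0.664, 0.142 and 0.869 FPKM against 0.732, 0.425 and 0.475. The log2 fold change of 0.01 had an interval from −0.46 to 0.48 (limma, adjusted p = 0.981), so a difference of moderate size in SIRT4 was not detectable at this depth.

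**Figure D2:**
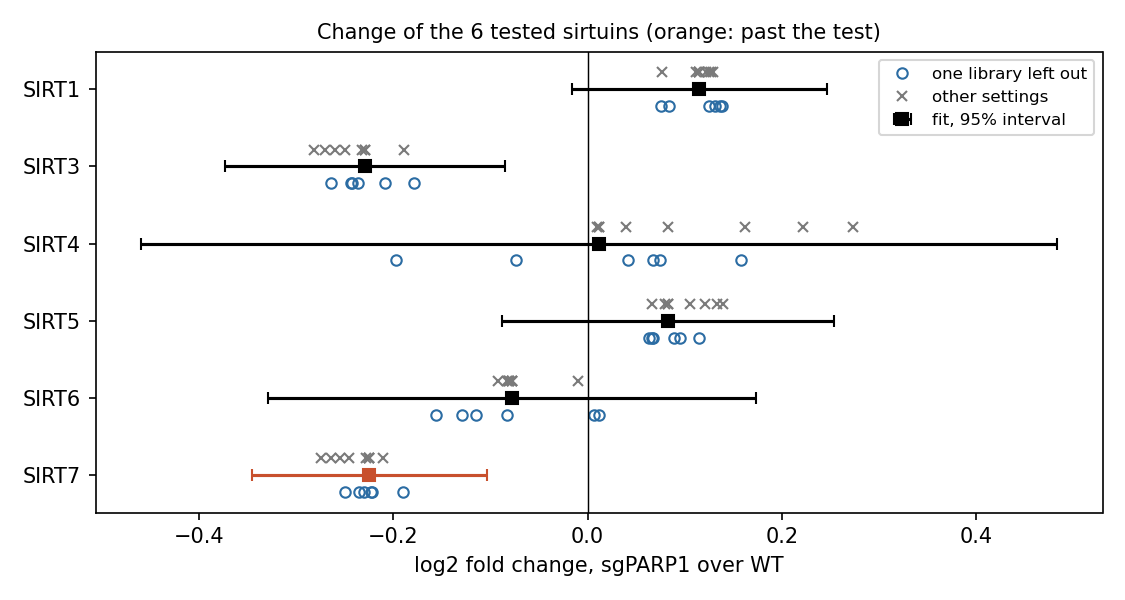
Log2 fold change of the 6 tested sirtuins, sgPARP1 over WT, with the 95% interval of the fit, up to 9 other settings (crosses) and 6 fits with 1 library left out (circles). SIRT7 and SIRT3 stayed below 0 and SIRT1 and SIRT5 above 0 throughout, and SIRT4 and SIRT6 crossed 0 when 1 library was left out.

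The change of SIRT7 against its relatives was also read within each library. The ratio of SIRT7 to SIRT1 in FPKM was 0.822, 0.769 and 0.746 in WT and 0.623, 0.523 and 0.630 in sgPARP1. The ratio of SIRT7 to SIRT5 was 4.24, 4.58 and 4.24 in WT and 3.60, 2.97 and 3.27 in sgPARP1. Both ratios lay apart between the groups, by −0.40 (standard error 0.096) and −0.41 (0.088) on the log2 scale. For SIRT1 this follows from the levels already given, since SIRT7 lay apart lower and SIRT1 apart higher, so it adds no support. SIRT7 is part of every ratio, so its fall enters each of them. The ratio to SIRT6 differed by −0.19 (standard error 0.11) with overlapping groups, and that to SIRT3 by 0.01 (0.062). With 3 libraries against 3, the smallest two-sided exact permutation p is 0.1, which the ratios to SIRT1 and SIRT5 reached (0.25 after Benjamini-Hochberg adjustment over the 5 ratios). No ratio could therefore pass the threshold. The ratio to SIRT4 rested on few reads and had an exact p of 0.9.

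The genes whose pattern over the 6 libraries was nearest to that of SIRT7 came from 3 chromosomes. Likeness was the root mean square difference of log2(FPKM + 1), centred on each gene's mean, among 10429 protein-coding genes. Since the genes were picked by this likeness to SIRT7, a fall of similar size follows from the choice. LZTS2, on chromosome 10, was nearest at 0.0176, and went from 24.7 ± 0.43 FPKM in WT to 20.9 ± 1.1 in sgPARP1. ENO3, the muscle form of the glycolytic enzyme enolase on chromosome 17, followed at 0.0181, with 25.5 ± 0.11 and 22.2 ± 0.80 FPKM. P3H1, a collagen prolyl hydroxylase on chromosome 1, came next at 0.0189, with 14.6 ± 0.29 and 12.6 ± 0.53 FPKM.

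SIRT2 (ENSG00000068903, chr19:38878555-38899862, minus strand), which deacetylates tubulin, had 1 read in sgPARP1 1 and was listed at 0 in the other 5 libraries. Its neighbours were listed the same way. SIRT2 lay in a run of 22 protein-coding genes over 702 kb, between FAM98C (3.69 FPKM) and PAK4 (8.77 FPKM), in which every mean was below 0.5 FPKM. The run was cut at the first gene of 0.5 FPKM or more on each side, so its low means follow partly from that rule. In the run, 21 genes (95.5%) had a mean under 0.05 FPKM, against 37.4% of all 20069 protein-coding genes, and 10 were listed at 0 throughout. The run holds genes that nearly every cell uses: the translation factor subunit EIF3K had a mean of 0.0186 FPKM, the splicing factor HNRNPL 0.0252, the actin crosslinker ACTN4 0.0438 and the mitochondrial seryl-tRNA synthetase SARS2 0.00357, and the mitochondrial ribosome protein MRPS12 was listed at 0. No level of SIRT2 can be read from these values, and what set the run to near 0 was not tested.

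**Figure D3:**
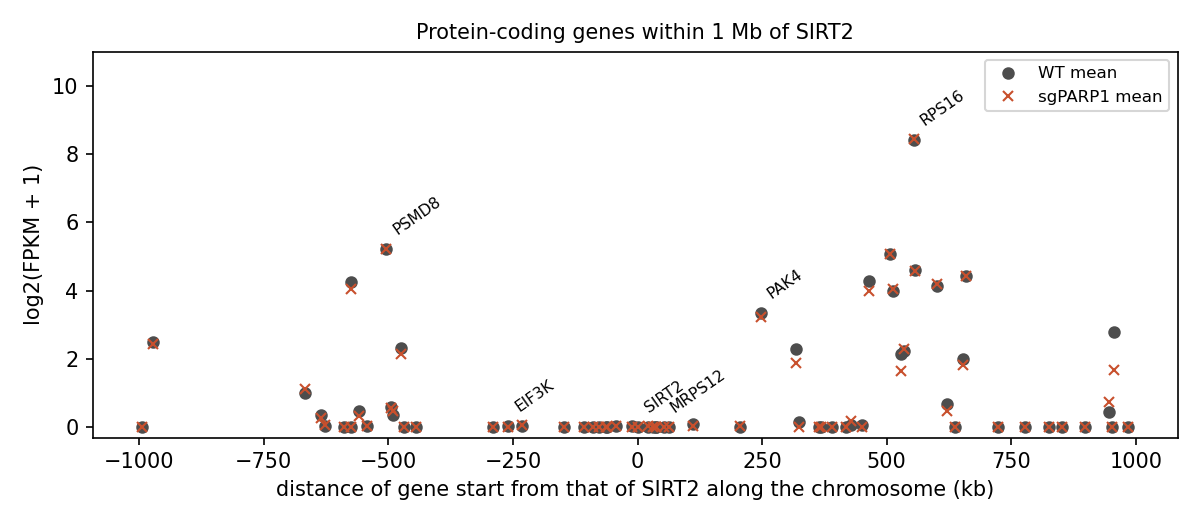
Mean level of the protein-coding genes around SIRT2 on chromosome 19, as log2(FPKM + 1), by distance from the SIRT2 start, with circles for the WT and crosses for the sgPARP1 mean. A run of 22 genes around SIRT2 lay below 0.5 FPKM, with expressed genes on both sides.

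SIRT7 shares 3054 bases with MAFG, a small Maf transcription factor, on the same strand, so reads there could be assigned to either. MAFG stood at 20.8 ± 1.2 FPKM in WT and 18.6 ± 1.3 FPKM in sgPARP1, a log2 fold change of −0.15 that did not pass (limma, adjusted p = 0.211). SIRT3 overlaps RIC8A on the other strand by 84 bases, and RIC8A had a log2 fold change of 0.07 (limma, adjusted p = 0.408). PSMD13, a proteasome subunit, starts 35 bases from the start of SIRT3 on the other strand. It stood at 38.4 ± 0.91 and 37.6 ± 1.8 FPKM, a log2 fold change of −0.03 (limma, adjusted p = 0.717), beside −0.23 for SIRT3. The partners of SIRT2 (NFKBIB, 163 shared bases), SIRT5 (ENSG00000261071, 1058) and SIRT4 (RNU6-1088P, 12), all on the other strand, were at or near 0.

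Groups lay apart in opposite directions for SIRT1 and SIRT3, so the RefSeq promoter sequences of both (GRCh38.p14, 250 bases before to 50 after the start) are shown. Neither gene passed the test, and SIRT7, which did, had no promoter entry. A link between promoter letters and levels was not tested. Capitals mark the letters CACGTG, an E-box, in SIRT1 and CCGGAAG, an ETS-like site read here on the other strand as CTTCCGG, in SIRT3. SIRT1 lies at chr10:67884406-67884705 on the plus strand and SIRT3 at chr11:236882-237181 on the minus strand.
SIRT1: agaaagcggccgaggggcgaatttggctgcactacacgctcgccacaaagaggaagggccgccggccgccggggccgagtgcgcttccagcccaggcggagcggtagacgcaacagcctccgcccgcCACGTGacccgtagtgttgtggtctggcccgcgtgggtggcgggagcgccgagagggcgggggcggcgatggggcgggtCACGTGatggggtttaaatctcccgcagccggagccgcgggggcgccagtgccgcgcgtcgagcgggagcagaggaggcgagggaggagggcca
SIRT3: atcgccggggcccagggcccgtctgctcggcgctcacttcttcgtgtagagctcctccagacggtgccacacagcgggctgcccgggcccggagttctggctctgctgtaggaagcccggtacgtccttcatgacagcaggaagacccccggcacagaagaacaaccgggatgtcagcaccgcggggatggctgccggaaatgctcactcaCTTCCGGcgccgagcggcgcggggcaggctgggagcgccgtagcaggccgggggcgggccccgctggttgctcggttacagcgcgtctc
Searched on both strands, the E-box occurred in SIRT1 at 2 places and not in the SIRT3 window, and 7.26% of 35116 promoters hold it. The ETS-like letters occurred in SIRT3 at 1 place and not in the SIRT1 window, and 10.3% of promoters hold them. They also occurred at 1 place in a SIRT6 window (chr19:4182514-4182813), and SIRT6 had overlapping groups. The GC box GGGCGG occurred at 4 places in SIRT1, 1 in SIRT3 and 4 in that SIRT6 window, and 45.0% of promoters hold it. GC made up 72.7% of the SIRT1 window and 69.3% of the SIRT3 window.

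None of the 3 nearest tested genes on each side of SIRT7 passed the test. PCYT2 and MAFG had groups apart, lower in sgPARP1, and the others had overlapping groups. ALYREF, ANAPC11 and PCYT2 on one side had log2 fold changes of 0.16, −0.09 and −0.18 (limma, adjusted p = 0.416, 0.294 and 0.0993), and PCYT2, an enzyme of phosphatidylethanolamine synthesis, stood at 12.1 ± 0.78 and 10.5 ± 0.20 FPKM. On the other side, beyond MAFG, the noncoding genes ENSG00000264769 and MILIP had 0.00 and 0.22 and did not pass. Of 66 tested genes within 1 Mb, 6 were lower and 0 higher, 9.09% called, against 7.96% of all tested genes and 9.54% of 839 on chromosome 17. Before adjustment, 3 were higher and 13 lower at p under 0.05, against 12.1% and 12.3% of all tested genes. The groups lay apart higher for 1 and lower for 15, against 16.1% and 14.9% of all tested genes. Voom called 0 higher and 8 lower, against 4.91% and 6.95%. The median log2 fold change of the 66 was −0.08, with 51 below 0, against −0.03 over the chromosome and 49.1% below 0 over all tested genes. This lean was not particular to SIRT7. Near SIRT6 the median was −0.08 with 31 of 40 below 0, and near SIRT3 −0.04 with 25 of 39. It was −0.03 near SIRT2 and above 0 near SIRT1, SIRT4 and SIRT5 (0.04, 0.02 and 0.13). Without 1 library, 2 to 4 of the 66 were called lower.

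The 6 lower genes near SIRT7 were FASN, SLC16A3, NOTUM, SECTM1, NARF and MIR657. FASN, the fatty acid synthase, starts 166 kb from SIRT7 and stood at 188, 169 and 167 FPKM in WT and 130.2, 119.7 and 129.6 in sgPARP1. SLC16A3, a lactate exporter at 306 kb, had means of 98.7 ± 6.0 and 74.8 ± 3.7 FPKM. NOTUM, a secreted enzyme that inactivates Wnt proteins, starts 40.6 kb away, with 8.34 ± 0.30 and 6.47 ± 0.60 FPKM. MIR657, a microRNA gene of 98 bases, rested on 2, 3 and 2 reads in WT and 0, 0 and 1 in sgPARP1. The shares called near the other sirtuins are read against the 7.96% of all tested genes called by limma and the 11.9% called by voom. Counts before adjustment are read against 12.1% of all tested genes higher and 12.3% lower, and voom counts against 4.91% higher and 6.95% lower. IFITM1, an interferon-induced membrane protein near SIRT3, stood at 55.3 ± 1.5 and 41.4 ± 1.8 FPKM and was the 1 called of 39 (2.56%), with 7 lower and 1 higher before adjustment at 0.05 and 6 lower by voom. CD83 and RNF182 near SIRT5 rose, with log2 fold changes of 0.38 and 0.43, and were the 2 called of 7 (28.6%), with 4 higher before adjustment and 3 higher by voom. PLIN3 and SEMA6B near SIRT6 fell, by 0.40 and 0.62 on the log2 scale, and were the 2 called of 40 (5%), with 8 lower before adjustment, 6 lower by voom and 0 to 3 lower by limma with 1 library left out. Near SIRT4, 2 of 29 were higher and 1 lower (10.3%), with 6 higher and 2 lower before adjustment and 3 higher and 1 lower by voom. OASL, an interferon-induced gene related to the oligoadenylate synthetases, stood at 5.005, 4.79 and 5.36 FPKM in WT and rose to 12.3, 12.3 and 12.4 in sgPARP1 (log2 fold change 1.14; limma, adjusted p = 0.000118). PRKAB1, a subunit of AMP-activated kinase, rose by 0.29 on the log2 scale (limma, adjusted p = 0.0463). ACADS, which oxidises short fatty acids, fell by 0.34, a call lost without any 1 library. With 1 library left out, 1 to 2 genes near SIRT4 were called higher. Near SIRT2, SAMD4B fell by 0.28 on the log2 scale and was the 1 called of 19 (5.26%), with 3 lower before adjustment and 3 lower by voom. Near SIRT1, limma called 0 of 12, with 2 higher and 1 lower before adjustment and 1 lower by voom.

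**Figure D4:**
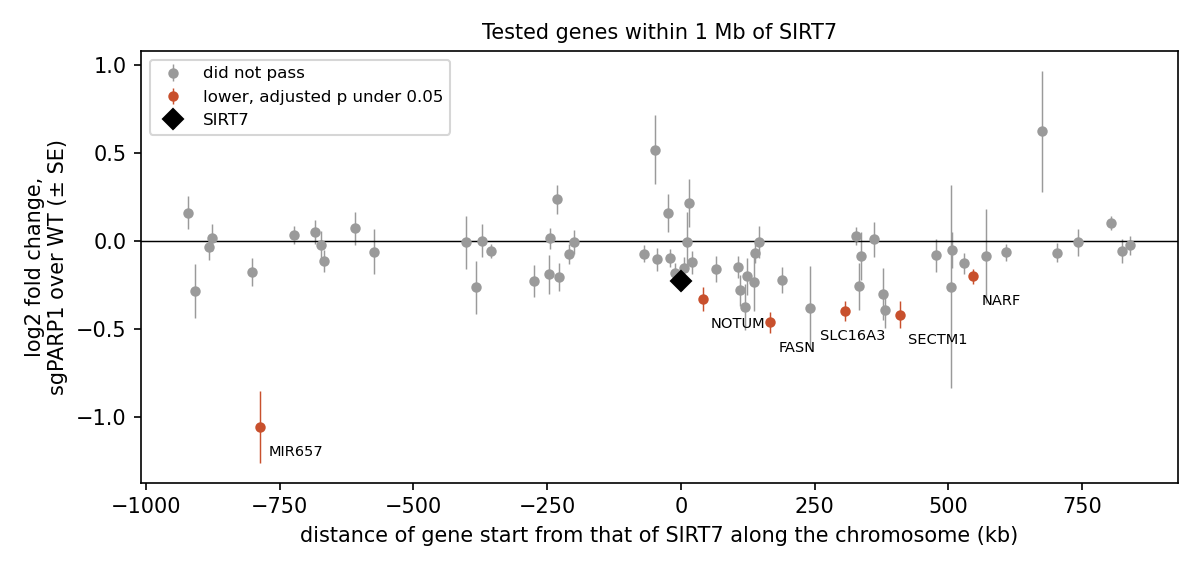
Log2 fold change with its standard error of the 66 tested genes within 1 Mb of SIRT7, by distance of the gene start along chromosome 17. The 6 called genes are lower in sgPARP1, and 5 of them lie on the side of higher coordinates.

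Of the genes listed for NAD synthesis, salvage and supply, 10 were tested, and 1 was lower and 0 higher (10% called, against 7.96% of all tested genes). Their median log2 fold change was −0.03. At an unadjusted p under 0.05, 1 was higher and 3 lower, and voom called 2 higher and 2 lower. Of all tested genes, 12.1% were higher and 12.3% lower before adjustment, and voom called 4.91% higher and 6.95% lower. The lower gene was KYNU, which cleaves kynurenine on the path from tryptophan, at 8.11, 8.72 and 8.14 FPKM in WT and 6.58, 7.08 and 6.49 in sgPARP1 (limma, adjusted p = 0.0267). The groups lay apart, and the call held with sgPARP1 2 left out and was lost without any other library. QPRT, which acts later on that path, stood at 17.5 ± 0.85 and 14.2 ± 1.8 FPKM (adjusted p = 0.107). NAMPT, which makes NAD from the nicotinamide that sirtuins release, stood at 3.28 ± 0.24 and 3.48 ± 0.33 FPKM (adjusted p = 0.651). NAPRT, which starts from nicotinic acid, was listed at 0.837, 0.918 and 22.4 FPKM in WT and 13.4, 13.3 and 15.2 in sgPARP1, a spread among the WT libraries wider than the difference of the group means.

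Another list held genes other than sirtuins that act on NAD or on nicotinamide. Among its 11 tested genes, the edited gene PARP1 was the 1 called, lower (9.09% called, against 7.96% of all tested genes). Before adjustment 1 was higher and 2 lower at 0.05, and voom called 2 lower. This list and the next ones are read against 12.1% of all tested genes higher and 12.3% lower before adjustment. By voom those shares were 4.91% and 6.95%. NNMT, which methylates nicotinamide, stood at 39.1 ± 1.1 FPKM in WT and 33.5 ± 2.8 in sgPARP1 (limma, adjusted p = 0.0872). Of 8 zinc-dependent deacetylases, which need no NAD, limma called 0 (1 higher at an unadjusted p under 0.05, 0 by voom), with a median of −0.06. Among the 8, the groups lay apart lower for 4 and higher for 1, against 14.9% and 16.1% of all tested genes. HDAC1 stood at 41.3 ± 0.28 and 39.7 ± 0.66 FPKM and HDAC7 at 15.1 ± 0.49 and 13.9 ± 1.4 FPKM. Of 12 regulators of sirtuins, limma called 0 (before adjustment 1 was higher and 3 lower at 0.05, and voom called 1 lower), with a median of 0.00. USP22, which takes ubiquitin off SIRT1, stood at 49.9 ± 3.1 and 49.96 ± 0.52 FPKM, STUB1, a ubiquitin ligase that stabilises SIRT6, at 28.1 ± 0.36 and 27.8 ± 2.0, and CCAR2, an inhibitor of SIRT1, at 22.03 ± 0.98 and 21.99 ± 0.23.

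Genes for the proteins that sirtuins act on were called in small numbers in both directions. Of 19 tested nuclear and cytosolic substrates, 0 were higher and 1 lower (5.26% called, against 7.96% of all tested genes), with a median log2 fold change of 0.01. Before adjustment, 1 was higher and 3 lower at p under 0.05 (limma), and voom called 1 higher and 3 lower. ACSS2, the cytosolic acetyl-CoA synthetase that SIRT1 activates, stood at 12.4, 11.6 and 10.4 FPKM in WT and 7.77, 8.10 and 8.57 in sgPARP1, and fell from a mean of 11.5 ± 0.97 to 8.15 ± 0.40 FPKM (limma, adjusted p = 0.0129). The groups lay apart, and the call was lost without WT 2 or sgPARP1 1. Of 20 tested mitochondrial substrates, 1 was higher and 2 lower (15.0% called, against 7.96% of all tested genes), with a median of 0.04. Before adjustment 4 were higher and 3 lower at 0.05, and voom called 2 higher and 3 lower. For both lists, the shares over all tested genes were 12.1% higher and 12.3% lower before adjustment, and 4.91% and 6.95% by voom. ACADVL, which begins the oxidation of very long fatty acids, went from 138, 132 and 126 FPKM to 106, 101 and 109.7 (limma, adjusted p = 0.0119). SHMT2, which feeds the mitochondrial folate cycle from serine, fell from 87.0 ± 1.7 to 73.6 ± 1.5 FPKM (limma, adjusted p = 0.00887). MCCC1, a leucine breakdown enzyme bound by SIRT4, rose from 9.64 ± 0.44 to 11.4 ± 0.39 FPKM (limma, adjusted p = 0.0416), and no mitochondrial substrate was called higher once any 1 library was left out. Without WT 2 or sgPARP1 1, 1 was called lower.

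Of the 10 genes of glucose uptake and glycolysis that SIRT6 is known to hold down in mouse cells, 5 were lower and 0 higher (50% called), with a median log2 fold change of −0.26. Of all tested genes, limma called 7.96%, and 4.44% lower. LDHA, counted among the 10, had a mean of only 0.544 FPKM, close to the filter of 0.5 FPKM, and did not pass. At an unadjusted p under 0.05, 6 were lower and 0 higher, against 12.3% of all tested genes lower. Voom called 6 lower and 0 higher, against 6.95% lower. PDK4, a kinase that inhibits pyruvate dehydrogenase, stood at 18.2, 19.3 and 18.9 FPKM in WT and 7.72, 6.80 and 6.95 in sgPARP1. It fell by 1.28 on the log2 scale (standard error 0.056; limma, adjusted p = 0.000118). The glucose transporter SLC2A1 fell from 40.1 ± 2.5 to 29.5 ± 1.3 FPKM, and the glycolytic enzymes PFKL from 34.7 ± 1.9 to 26.8 ± 1.5 FPKM, ALDOC from 32.4 ± 2.0 to 25.9 ± 2.1 and PFKP from 65.3 ± 3.2 to 54.0 ± 0.34. These values stand beside the −0.08 of SIRT6 itself, which did not pass. Without WT 2 or sgPARP1 1, 3 of the 10 were called lower, and 4 without any other library.

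Of 17 tested genes of RNA polymerase I and the nucleolus, where SIRT7 works, limma called 0 (before adjustment 3 were higher and 1 lower at 0.05, and voom called 0), with a median log2 fold change of 0.08. Over all tested genes, limma called 7.96% and voom 11.9%, and 12.1% were higher and 12.3% lower before adjustment. The nucleolar proteins NPM1, at 224 ± 6.4 and 233 ± 3.3 FPKM, and NCL, at 118 ± 4.2 and 125 ± 2.2 FPKM, lay higher in all sgPARP1 than in all WT libraries without passing (limma, adjusted p = 0.353 and 0.225). Of the 17, the groups lay apart higher for 7 and lower for 1, against 16.1% and 14.9% of all tested genes. FBL, counted among the 17, was listed unevenly, at 1.52, 15.4 and 0.777 FPKM in WT and 3.26, 1.55 and 1.87 in sgPARP1.

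**Figure D5:**
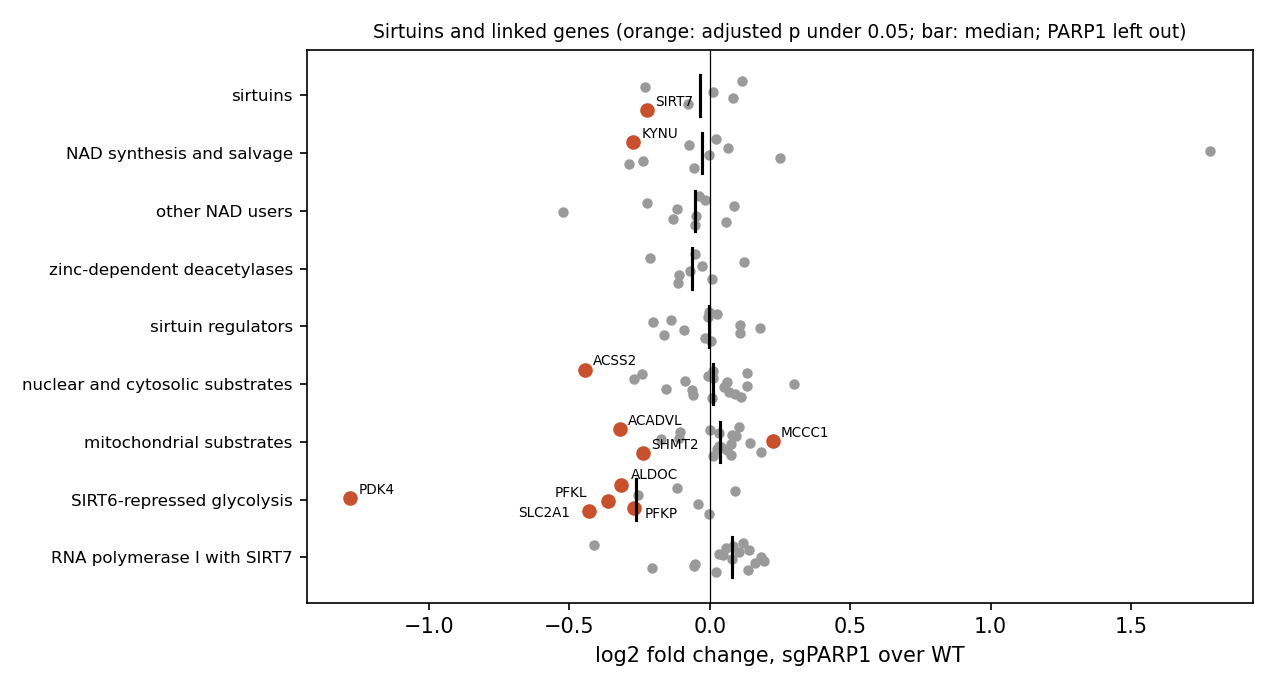
Log2 fold change, sgPARP1 over WT, of the tested sirtuins and of tested genes linked to them, with a bar for the median of each list and PARP1 left out. Genes past the test are named, and 5 of the 10 glycolysis genes lay among them.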

How the data were processed

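RNA of 6 libraries, 3 WT and 3 sgPARP1, was grouped by title. The authors deposited FPKM per gene, with IDs, symbols, coordinates and lengths for 62753 genes (1 further line is emptied). Of the builds hg38, mm10 and GRCm38 in the submitters' processing notes, hg38 is used for coordinates, since the sirtuin positions overlapped those of GENCODE release 29 (GRCh38). How reads were aligned and counted, and whether by strand, is not given in the sources used here.

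The product of FPKM and gene length rose in equal steps of 1 read within each library (all values of up to 200 reads within 0.02 of a whole read), which gave the reads. Precision follows the reads behind a gene.

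Log2(FPKM + 1), a pseudocount of 1, was tested, for genes averaging at least 0.5 FPKM, with limma 3.58.1 (R 4.3.3, moderated test with trend) and Benjamini-Hochberg adjustment at 0.05 over all 13167 genes. The scripts were tested on simulated data. Ratios between sirtuins were compared with exact two-sided permutation tests. Percent differences are ratios of mean FPKM. Sequences and motifs were read with Python 3.11.15 from GENCODE transcripts and RefSeq promoters, and 6 of 7 sirtuins had a promoter entry.

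The sirtuins, the 14 gene lists and the tests were chosen with earlier results of these data known. A gene of 1 list is not reported here, and its list is counted without it. Named genes were the sirtuins, PARP1, up to 4 called members of each list with the largest changes, filled up to 2 with the most abundant, overlapping genes, the 3 tested genes on each side of SIRT7 and the 3 genes most like SIRT7. PFKP, LDHA, FBL, PDGFRB, COL1A1, NAMPT, NAPRT, CCAR2, PSMD13, the genes of the run around SIRT2, the hepatocyte genes at 0 and the called neighbours were named after their values were seen. Alternatives were pseudocounts of 0.1 and 0.5, no filter, a mean of at least 5 FPKM, TPM, median-of-ratios scaling, voom on the recovered reads, array quality weights, a replicate block, windows of 0.5 and 2 Mb and each library left out.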

Additional observations from a re-analysis of the deposited data

How the results depend on the processing

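The direction of SIRT1, SIRT3, SIRT5 and SIRT7 was kept under every alternative run. SIRT7, at −0.22 (log2), lost its call with no filter (−0.22, adjusted p = 0.0839) and with 1 library left out (−0.25 to −0.19, adjusted p = 0.0702 to 0.139), and kept it in 7 of 9 other settings. SIRT3 passed with voom on recovered reads (−0.28, adjusted p = 0.0374). With 1 library left out, SIRT4 ranged from −0.20 to 0.16, SIRT6 from −0.16 to 0.012, the log2 ratio of SIRT7 to SIRT3 from −0.050 to 0.051 and that of SIRT7 to SIRT4 from −1.06 to 0.26, with both signs in each. SIRT4 also moved with the setting, from 0.01 to 0.27 (voom) over 8 other settings, and passed in 0. The cause was not tested.

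Over all genes, 1048 were called, 1561 with voom, 1789 with array quality weights, 587 with no filter and 412 to 652 with 1 library left out. Within 1 Mb of SIRT7, 6 were lower, 2 with no filter and 2 to 4 with 1 library left out. Leaving out a library leaves fewer samples.

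Libraries with the same replicate number did not deviate together (correlations of 0.041, 0.081 and −0.026), so the numbers were not taken to pair the samples. With the replicate block, 550 genes were called, 3 were lower within 1 Mb of SIRT7, and SIRT7 had −0.22 with an adjusted p of 0.108. Scaling by TPM, by median of ratios or by voom moved the median log2 fold change of all tested genes by 0.0017, −0.0034 and −0.0051. Depth limits SIRT4, at 3 to 16 reads per library. SIRT2 could not be tested.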
